A study of Mus musculus with 6 samples.

Results

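The subcortical maternal complex is a protein assembly that lies beneath the plasma membrane of the oocyte and is handed to the early embryo. Its genes and the related oocyte NLRP genes were followed here as 10 rows of a table of 47205 genes, chosen by symbol: Nlrp5, Padi6, Ooep, Tle6, Khdc3, Nlrp2, Nlrp4f, Nlrp14, Kpna7 and Zbed3. All 10 were present once in the table and all 10 passed the filter on low values, a mean of at least 1 FPKM (fragments per kilobase of gene, with each library scaled by the authors). The data were RNA sequencing of whole mouse ovaries taken at 9 days post partum (dpp), with 3 wild-type libraries (WT) and 3 from animals whose granulosa cells had lost Srsf1 by knockout (cKO). Granulosa cells are the somatic cells around the oocyte, and SRSF1 is a serine/arginine-rich splicing factor. The study compared the expression profiles of these genotypes, and the genes followed here belong to the oocyte, the cell type that the knockout did not target. The Cre driver, the floxed allele, the genotype of the WT mice at that allele and the strain are unstated in the sources used here. Nothing in the labels ties each library to its own animal, and the p-values therefore cover the spread between these libraries only, which may be technical.

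In the textbook account these transcripts are made by growing oocytes and their proteins act after fertilization. NLRP5 (also called MATER), OOEP (FLOPED), TLE6 and KHDC3 (FILIA) form the core of the complex, and PADI6 is needed for the fibrous lattices of the oocyte cytoplasm. Embryos of mothers that lack Nlrp5, Ooep, Tle6 or Padi6 arrest in early cleavage, which makes these maternal-effect genes.

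Libraries held 16.8 to 18.7 M reads recovered from the FPKM values, and 1 read in a gene of 1 kb was worth 0.0520 to 0.0581 FPKM. Srsf1 itself stood at 39.9, 49.7 and 46.3 FPKM in WT and at 20.3, 26.9 and 21.4 FPKM in cKO, without overlap. Its log2 fold change was -0.96 (SE 0.13) and did not pass the threshold in limma (adjusted p = 0.320). All 12 oocyte markers were detected, with a summed level of 2105 to 2269 FPKM in WT and 2106 to 2288 FPKM in cKO. Of 5 sperm or testis markers, 4 were below the filter, the meiotic gene Sycp3 being the exception. The library of cKO replicate 2 stood apart: it had the lowest value of the 6 in 27.3% of the genes tested and the highest in 24.3%, against at most 20.9% for any other library. Its deviation followed gene length. Relative to the median of the other 5 libraries it was higher by a median of 0.28 on the log2 scale for genes under 0.5 kb and lower by a median of -0.18 for genes over 10 kb. Fold changes that rest on this library are given with and without it.

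The promoters of 3 members are shown because each held an E-box at the same distance from the start. A further reason is that all 3 encode proteins of the complex or its lattices. FIGLA is a basic helix-loop-helix factor of the oocyte that binds E-boxes, the letters CANNTG, which read the same on both strands. RefSeq promoters (GRCm38.p6) were matched for 9 of the 10 members, 13 promoters in all, with none for Nlrp14. Within the 250 bases before the start, 8 of the 9 genes held at least 1 E-box and Nlrp2 held none. Counted by promoter, all of the 13 but that of Nlrp2 held at least 1, beside 66.2% of all 32851 promoters. In Ooep, Padi6 and Khdc3 an E-box began at position -78, which was seen after the motif search. An E-box at this position was held by 159 promoters, or 0.484% of all, a share for this position alone. Khdc3 held 5 E-boxes within the 250 bases, Padi6 2 and Ooep 1. The lines give bases -110 to -51 before the start, 5′ to 3′ on the strand of the gene, with the E-box in capitals. They lie at chr9:78378639-78378698 (minus strand) for Ooep, chr4:140742694-140742753 (minus strand) for Padi6 and chr9:73102288-73102347 (plus strand) for Khdc3, all in GRCm38.p6.
Ooep: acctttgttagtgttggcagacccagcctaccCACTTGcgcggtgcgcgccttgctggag
Padi6: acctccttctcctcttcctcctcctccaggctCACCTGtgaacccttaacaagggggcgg
Khdc3: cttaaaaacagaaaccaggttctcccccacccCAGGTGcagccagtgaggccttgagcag
The motifs of Padi6 and Khdc3 are reverse complements, the same site in opposite orientation, and that of Ooep differs from both in its middle bases. A match of letters is a description of the sequence, not a measured binding site. Figla was measured at 21.8, 16.3 and 17.2 FPKM in WT and at 21.6, 22.7 and 22.8 FPKM in cKO. The groups overlapped through WT replicate 1, with a log2 fold change of 0.27 (limma adjusted p = 0.773).

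None of the 10 genes passed the threshold between the genotypes. In limma, 0 rose and 0 fell at an adjusted p of 0.05, beside 1 higher gene (0.0068% of the 14714 tested) and 2 lower genes (0.0136%). At an unadjusted p under 0.05, 0 of the 10 were called by limma and 0 by limma-voom on the recovered reads. Over all genes, limma gave 933 and limma-voom 907 at that level. Without cKO replicate 1, limma called 1 of the 10, Nlrp2 at a log2 fold change of -0.47, beside 808 over all genes. No other alternative called any of them at that level. The groups overlapped for each of the 10, where 5.89% of all genes had every cKO value below every WT value and 6.37% had every cKO value above. By sign, 9 of the 10 fold changes were below 0 and 1, that of Ooep, was above. Their median was -0.17, beside a median of -0.0001 over all genes tested, and without cKO replicate 2 it was -0.07, with 8 below 0 and 2 above. Without cKO replicate 3 it was -0.09, with 7 below 0 and 3 above. It moved the other way without cKO replicate 1, to -0.24, with 9 below 0 and 1 above. Leaving out a WT library gave -0.14 to -0.15. Rescaling to a common total and quantile normalization each gave -0.23. In whole ovary, fewer oocytes and less RNA per oocyte cannot be told apart.

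**Figure D1:**
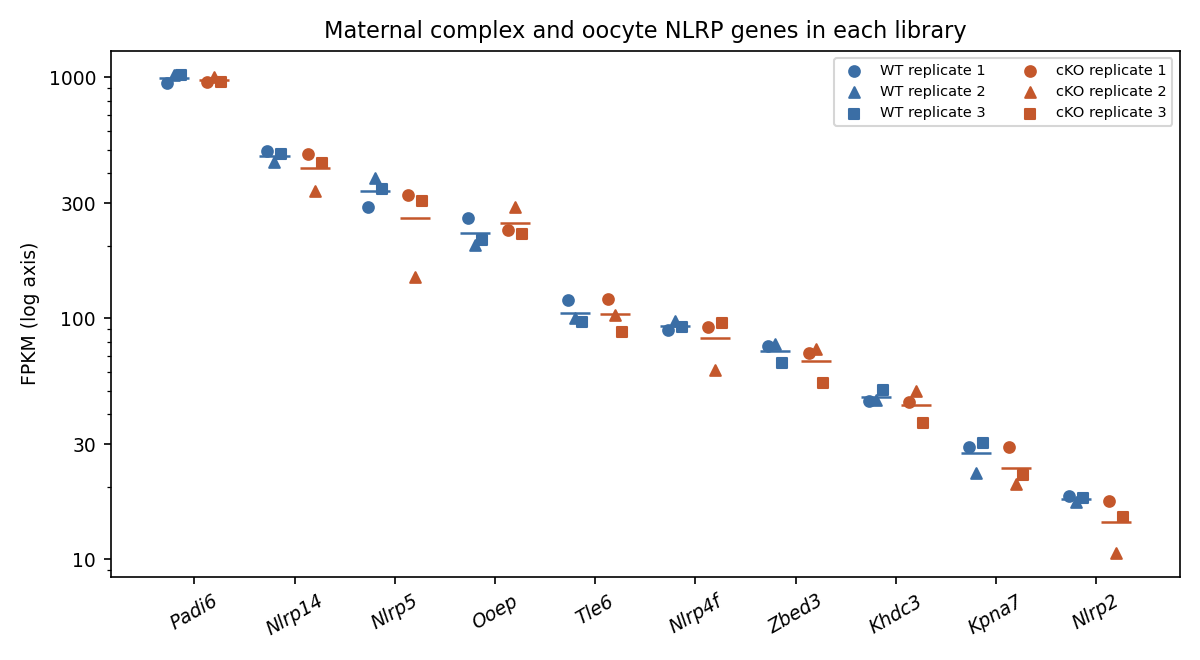
FPKM (log axis) of each of the 10 genes in each library, with WT in blue, cKO in orange, a marker shape for each replicate number and a line at each group mean (n = 3). Padi6 lies at 947 to 1027 FPKM in all 6 libraries, and cKO replicate 2 (orange triangles) lies lowest for Nlrp14, Nlrp5, Nlrp4f, Kpna7 and Nlrp2.

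Among the core subunits, Nlrp5 varied the most. NLRP5 is the scaffold with a NACHT domain and leucine-rich repeats around which the core assembles (chromosome 7, 23085314 to 23141348, plus strand, GRCm39 as in the table, with 16 exons in GENCODE M21). It measured 290, 382 and 343 FPKM in WT and 325, 148 and 308 FPKM in cKO. cKO replicates 1 and 3 lay inside the WT range, and cKO replicate 2 lay below all others at 45.7% of the median of the other 5. The group means, with SD over 3 libraries, were 338 ± 46.0 FPKM (WT) and 260 ± 97.4 FPKM (cKO), and the log2 fold change was -0.45 (SE 0.30, limma adjusted p = 0.827). Its 95% interval ran from -1.16 to 0.26. Without cKO replicate 2 the log2 fold change was -0.09. The lowest value rested on 10090 reads, so that counting error there was 0.995%. Of the 50-base windows of its transcript, 8.69% also occur in the pseudogene Nlrp5-ps, which the table lists at 1.07 to 2.39 FPKM.

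Ooep, the small KH-domain subunit, was the exception in direction (chromosome 9, 78284185 to 78285870, minus strand, 3 exons). It stood at 262, 202 and 212 FPKM in WT and at 234, 290 and 224 FPKM in cKO. Here cKO replicate 2 was the highest of the 6, at 129% of the median of the others, and the remaining cKO libraries lay inside the WT range. Limma gave a log2 fold change of 0.15 (SE 0.15, adjusted p = 0.872), with a 95% interval of -0.21 to 0.50. Without cKO replicate 2 it was 0.03.

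Tle6, a relative of the Groucho co-repressors that serves as a subunit of the complex, showed no separation (chromosome 10, 81426738 to 81437021, minus strand, 14 exons). Its values were 119, 100.4 and 96.9 FPKM in WT and 120.2, 103 and 87.9 FPKM in cKO. Replicate 1 was the highest within each group, and the group means of 105 ± 12.0 and 104 ± 16.1 FPKM (SD, n = 3) differed by less than either spread. The log2 fold change was -0.03 (SE 0.14, limma adjusted p = 0.976). It was 0.06 without WT replicate 1, 0.085 without cKO replicate 3 and 0.04 when libraries were centred on other oocyte genes. Without cKO replicate 1 it was -0.14, and without cKO replicate 2 it stayed at -0.03. The locus overlaps Tle2 on the opposite strand, which measured 6.10 to 9.58 FPKM. Whether the counting used strand is unstated in the sources used here.

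Khdc3 encodes a KH-domain subunit that is known for keeping chromosomes evenly divided in early embryos (chromosome 9, 73008660 to 73013915, plus strand, 3 exons). It lies 5.27 Mb from Ooep on the same chromosome. The WT libraries gave 45.4, 45.6 and 50.6 FPKM and the cKO libraries 45.1, 49.7 and 36.8 FPKM. cKO replicate 1 lay just below the WT range, cKO replicate 2 inside it, and cKO replicate 3 was the lowest of the 6. Its log2 difference was -0.11 (SE 0.12, limma adjusted p = 0.874). It was 0.0055 without cKO replicate 3 and -0.21 without cKO replicate 2. Of the 50-base windows of its transcript, 42.8% also occur in Gm20509. How far reads from these shared windows enter the Khdc3 level was not tested.

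Padi6 had the highest level of the 10 and, over all 6 libraries, the smallest coefficient of variation (3.63%). PADI6 belongs to the peptidylarginine deiminases and is a component of the cytoplasmic lattices (chromosome 4, 140454666 to 140469954, minus strand, 16 exons). It ranked 13 in the whole table by mean FPKM. It measured 947, 1021 and 1027 FPKM in WT and 958, 1006 and 959 FPKM in cKO. All 3 cKO values lay inside the WT range. The means were 998 ± 44.9 and 974 ± 27.6 FPKM (SD, n = 3), and the log2 fold change was -0.03 (SE 0.12, limma adjusted p = 0.964). Its 95% interval of -0.32 to 0.25 corresponds to a loss of up to 19.8% or a gain of up to 18.9%. Centred on other oocyte genes, the fold change was 0.03.

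The 3 further NLRP genes shared the low value of cKO replicate 2 with Nlrp5. NLRP14 is an oocyte protein needed for development after fertilization (chromosome 7, 106712662 to 106797310, plus strand, 11 exons). Nlrp14 measured 496, 444 and 479 FPKM in WT and 480, 336 and 441 FPKM in cKO. Olfactory receptor genes overlap the locus, Olfr715 and Olfr716, and were at or near 0. cKO replicate 1 lay inside the WT range, cKO replicate 3 just below it and cKO replicate 2 at 70.2% of the median of the other libraries. Limma gave a log2 fold change of -0.19 (SE 0.16, adjusted p = 0.850), and -0.04 without cKO replicate 2.

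Nlrp4f encodes an NLRP protein found with the complex (chromosome 13, 65324925 to 65353530, minus strand, 11 exons). It stood at 89.8, 97.2 and 92.3 FPKM in WT and at 92.1, 61.0 and 96.0 FPKM in cKO. The 5 libraries other than cKO replicate 2 spanned 89.8 to 97.2 FPKM, and that library lay at 66.0% of their median. Its log2 difference was -0.19 (SE 0.18, limma adjusted p = 0.862) and changed sign to 0.015 without it. Of the 50-base windows of its transcript, 4.63% also occur in Nlrp4g.

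Nlrp2, a maternal-effect gene of the same family (chromosome 7, 5301546 to 5354034, minus strand, 12 exons), had the smallest p-value of the 10. Its WT libraries were close together at 18.2, 17.2 and 18.0 FPKM, and the cKO libraries measured 17.5, 10.6 and 14.9 FPKM. cKO replicate 1 lay inside the WT range, and cKO replicates 2 and 3 lay below it. Group means were 17.8 ± 0.521 and 14.3 ± 3.47 FPKM (SD, n = 3). The log2 fold change was -0.32 (SE 0.17, 95% interval -0.72 to 0.07, limma adjusted p = 0.798), and -0.13 without cKO replicate 2. With 694 to 1130 reads per library, counting error at the lowest value was 3.80%.

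Kpna7 and Zbed3 complete the set. KPNA7 is the importin alpha of oocytes and early embryos, a carrier of proteins into the nucleus (chromosome 5, 144920537 to 144946446, minus strand, 14 exons). Its levels were 29.3, 22.9 and 30.5 FPKM in WT and 29.2, 20.4 and 22.3 FPKM in cKO. WT replicate 2 was low beside its own group, near cKO replicates 2 and 3, and cKO replicate 2 was the lowest of the 6. Its log2 fold change came to -0.20 (SE 0.16, limma adjusted p = 0.852), and to -0.09 without cKO replicate 2.

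ZBED3 is a zinc finger protein that joins the complex in oocytes (chromosome 13, 95460113 to 95474350, plus strand, 2 exons). Zbed3 measured 77.0, 78.0 and 65.2 FPKM in WT and 71.4, 74.5 and 53.8 FPKM in cKO. cKO replicates 1 and 2 lay inside the WT range and cKO replicate 3 was the lowest of all. The log2 fold change was -0.15 (SE 0.15, limma adjusted p = 0.865). It was -0.0043 without cKO replicate 3 and -0.24 without cKO replicate 2.

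**Figure D2:**
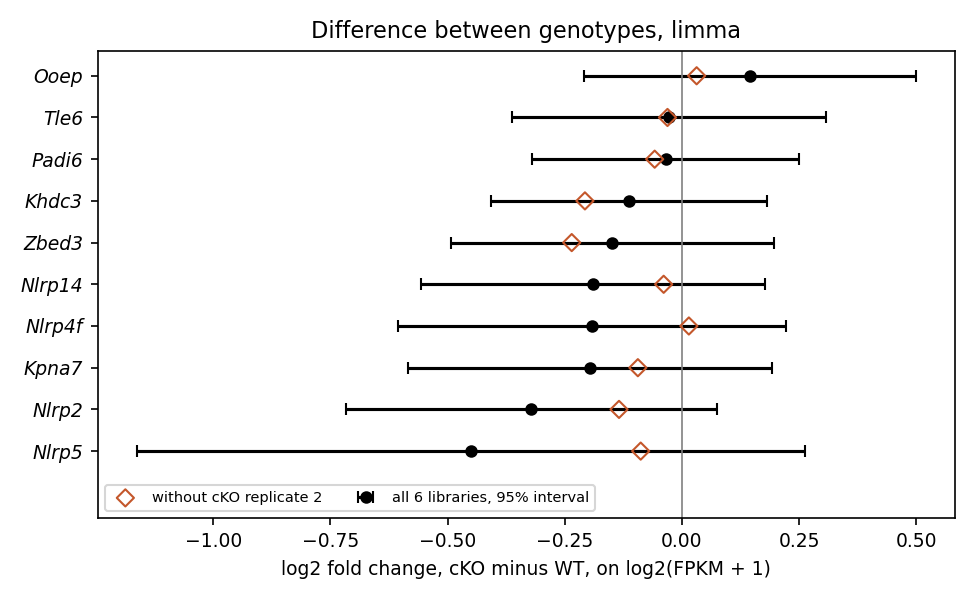
Log2 fold change (cKO minus WT, on log2(FPKM + 1)) of the 10 genes. Filled points with bars are limma estimates from all 6 libraries with 95% intervals, open diamonds leave out cKO replicate 2. Every interval includes 0, and Nlrp5 moves from -0.45 to -0.09 without that library.

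Single libraries held most of the low values, a pattern described after the values were seen and not tested. cKO replicate 2 was the lowest of the 6 for 5 of the 10: all 4 NLRP members and Kpna7. It was the highest for Ooep. cKO replicate 3 was the lowest for Tle6, Khdc3 and Zbed3, as for 15.5% of all genes tested, while cKO replicate 1 was the lowest for none. As a mean over the 4 NLRP members of log2(FPKM + 1) relative to WT, the WT libraries lay at -0.04, 0.03 and 0.01 and the cKO libraries at -0.02, -0.74 and -0.11. Over the 6 other members the same measure was 0.07, -0.06 and -0.01 in WT and 0.03, 0.01 and -0.23 in cKO. The near-zero mean of the others in cKO replicate 2 covers members that went both ways: Kpna7 lay at 69.9% of the median of the other libraries, as low as Nlrp14, and Ooep at 129%. The summed FPKM of the 4 NLRP members was 894, 940 and 932 in WT and 914, 556 and 859.5 in cKO. The summed level of the 12 oocyte markers was 2106 FPKM in cKO replicate 2 and 2105 FPKM in the lowest WT library. That sum covers markers that went both ways: cKO replicate 2 was the lowest library for 5 of the 12 and the highest for 2. Kit and Ddx4 were at 66.3% and 66.1% of the median of the other libraries there, and Zp3 and Ybx2 at 107% and 133%.

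Gene length moved with the values of this library and was therefore set beside them. The 4 NLRP members have lengths of 3404 to 3542 bases in the table. Over the 2189 tested genes of 3 to 4 kb, cKO replicate 2 differed from the median of the other libraries by a median of -0.01, and it was the lowest library for 26.2% of them. The 4 NLRP members lay at -1.13 (Nlrp5), -0.67 (Nlrp2), -0.59 (Nlrp4f) and -0.51 (Nlrp14) on this scale. Within that length class 18 genes, or 0.822%, were as far below as Nlrp5, and 3.38%, 4.2% and 5.71% were as far below as Nlrp2, Nlrp4f and Nlrp14. Khdc3, at 4893 bases in the table, and Zbed3, at 11641 bases, were at 109% and 104% of the median of the other libraries there. Their coding transcripts in GENCODE M21 have 1681 and 1945 bases, shorter than the 3272 to 3551 bases of the NLRP members, so their place in the order of lengths depends on the length used. The part of gene length in the NLRP values was not tested. When the trend with gene length was removed from each library, an alternative added after seeing the data, the median fold change of the 10 was -0.14 and none passed the threshold. Nlrp5 stayed at -0.45 under it, while Ooep went from 0.15 to 0.055 and Zbed3 from -0.15 to -0.058.

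**Figure D3:**
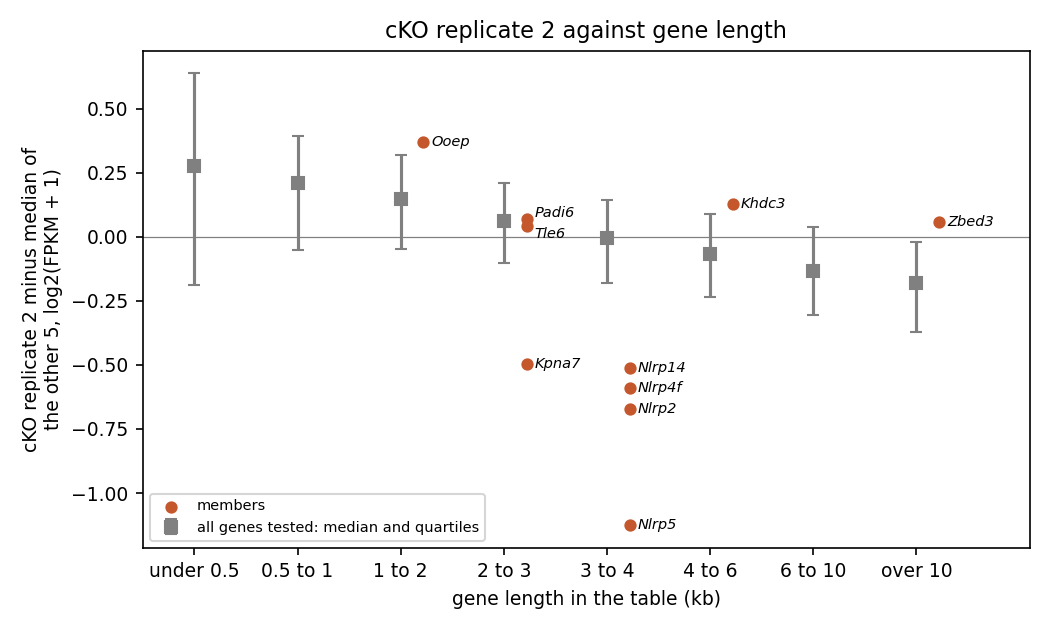
Difference of cKO replicate 2 from the median of the other 5 libraries, on log2(FPKM + 1), against gene length in kb. Grey squares with bars are medians and quartiles over all genes tested in each length class, and orange points are the 10 genes. The 4 NLRP genes lie between -0.51 and -1.13 in a class whose median is -0.01.

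The rest of the Nlrp family, taken whole by symbol, was examined in the same way. Of 18 protein-coding Nlrp genes 13 passed the filter. The 9 tested genes that are not among the 10 ranged from 1.07 to 26.9 FPKM, all below Nlrp4f and the more abundant members. Of these 9, 8 had a fold change below 0 and 1 above, their median was -0.30, and 0 passed the threshold in limma (smallest adjusted p = 0.737). Without cKO replicate 2 there were again 8 below 0, with a median of -0.20. By unadjusted p, 3 of them were under 0.05 in limma, Nlrp4g, Nlrp9b and Nlrp9a, beside 6.34% of all genes tested. With a library left out this count was 2 to 6, beside 3.31% to 7.16% of all genes tested. It was 2 without cKO replicate 2 (7.1% of all genes) and 6 without cKO replicate 1 (5.49%). These 3 also had all cKO values below all WT values, as 5.89% of all genes did. Nlrp9b, an NLRP gene of the intestine and oocyte, stood at 22.9, 21.1 and 26.2 FPKM in WT and at 19.1, 14.7 and 14.1 FPKM in cKO. Its log2 fold change was -0.54 (SE 0.14), and the adjusted p of 0.737 was the smallest of the family. Without cKO replicate 2 it was -0.49 (adjusted p = 0.577).

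cKO replicate 2 was the lowest library for 9 of the 13 tested Nlrp genes and below the median of the other libraries for 12 of them, where 50.3% of all genes tested were below. Nlrp10, the skin-associated member without leucine-rich repeats, was the exception: it measured 1.24, 1.13 and 1.07 FPKM in WT and 1.66, 1.28 and 1.73 FPKM in cKO, with all cKO values higher. The largest relative shortfall beside Nlrp5 was that of Nlrp4e, its neighbour on chromosome 7 at a distance of 23611 bases. Nlrp4e stood at 4.73, 3.97 and 5.48 FPKM in WT and at 3.77, 1.96 and 4.18 FPKM in cKO, with cKO replicate 2 at 46.8% of the median of the others. Its log2 fold change was -0.44, and -0.20 without that library. The 5 inflammasome-type or immune members below the filter, Nlrp3, Nlrp6, Nlrp1a, Nlrp1b and Nlrp12, reached at most 0.625 FPKM in any library. Their low levels stood beside a summed level of 7 leukocyte markers of 26.3 to 35.6 FPKM in WT and 54.0 to 126 FPKM in cKO.

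**Figure D4:**
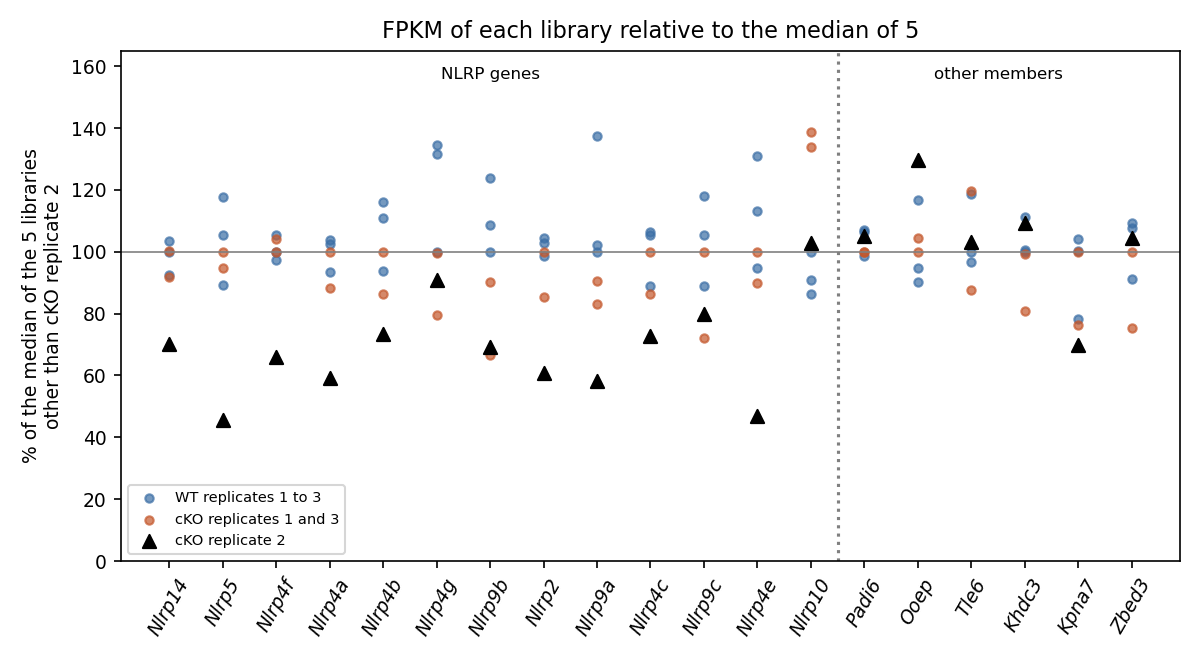
FPKM of each library as a percentage of the median of the 5 libraries other than cKO replicate 2, for the 13 tested Nlrp genes and the 6 other members. Black triangles are cKO replicate 2, blue and orange points are the other WT and cKO libraries. The triangles lie below 100% for 12 of the 13 Nlrp genes, lowest at 45.7% for Nlrp5.

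The families of the other members were compared by mean FPKM, with the lengths of the table. Padi6 and Zbed3 were the highest of their families, and Ooep the highest of the KH-domain genes. Tle6 at 105 FPKM lay below Tle5 at 237 FPKM, and Kpna7 at 25.8 FPKM below Kpna2 at 82.6 FPKM. Khdc3 at 45.5 FPKM lay below Khdc1b at 207 FPKM. Padi2, Padi1, Padi4 and Padi3 measured at most 16.9, 8.54, 4.18 and 0.287 FPKM, and for the 3 that were tested the highest library was cKO replicate 2, where Padi6 was at 105% of the median of the other libraries. The 6 surface epithelium markers summed to 116 to 145 FPKM in WT and 176 to 242 FPKM in cKO, and 4 were highest in cKO replicate 2. The other libraries differed: the 3 Padi genes were next highest in WT replicate 3. There Padi1 measured 2.13 FPKM, beside 0.141 and 0.145 FPKM in cKO replicates 1 and 3. The markers' mean log2(FPKM + 1) relative to WT was 0.06 in WT replicate 3 and 0.37 and 0.71 in cKO replicates 1 and 3. The part of surface epithelium in the Padi values was not tested. Padi4 lies 2864 bases from Padi6 and stood at 1.08, 0.750 and 1.74 FPKM in WT and at 1.10, 4.18 and 0.950 FPKM in cKO. Among importin alpha genes Kpna2, the carrier of dividing cells, was the most abundant at 64.9 to 91.6 FPKM, and cKO replicate 2 was the lowest library for all 6 Kpna genes, as for 27.3% of all genes tested. Dppa5a, a KH-domain gene 8703 bases from Ooep, measured 132, 131 and 164 FPKM in WT and 145, 176 and 102 FPKM in cKO. Like Ooep it was highest in cKO replicate 2, while Ddx43 on the other side of Ooep reached at most 0.372 FPKM. The nearest genes on either side of Nlrp2 were vomeronasal receptor genes at or near 0 FPKM, beside 10.6 to 18.2 FPKM for Nlrp2 itself.

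By level in WT the order was Padi6, Nlrp14, Nlrp5, Ooep, Tle6, Nlrp4f, Zbed3, Khdc3, Kpna7 and Nlrp2. Padi6 was 2.11 times Nlrp14, and their ranges over the 6 libraries did not overlap. Ranges over 6 libraries did overlap for the neighbours Nlrp14 and Nlrp5, Nlrp5 and Ooep, Tle6 and Nlrp4f, and Nlrp4f and Zbed3. Within WT only Tle6 and Nlrp4f overlapped.

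The order depends on the gene length by which the reads are divided. The table's length exceeds that of the GENCODE M21 transcript with the longest coding sequence by 5.99 times for Zbed3 (11641 against 1945 bases) and by 2.91 times for Khdc3. For Ooep it is 0.564 of the transcript. With recovered reads divided by the transcript length, Zbed3 in WT moved from 73.4 to 439 FPKM, from rank 7 to rank 3. Khdc3 moved from 47.2 to 137 FPKM, level with Tle6 at 138 FPKM. Ooep moved from 225 to 127 FPKM. Padi6 at 998 FPKM, Nlrp14 at 495 FPKM and Nlrp2 at 17.8 FPKM kept the ends of the order. Which transcript ends the oocyte uses was not measured. For Khdc3 either level may also hold reads from the windows shared with Gm20509, which was not tested. A gene has the same length in every library, but its length class, the removal of the length trend and the weight of the added 1 FPKM rest on the table's length.

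**Figure D5:**
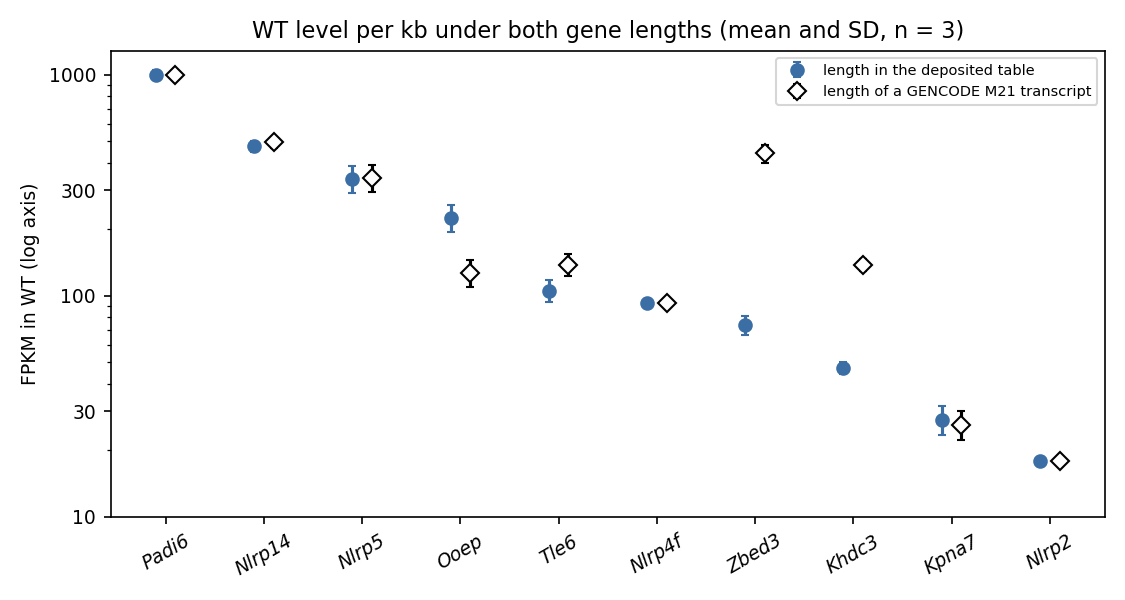
FPKM in WT (log axis, mean and SD, n = 3) of the 10 genes, with the gene length of the deposited table (filled circles) and with the length of a GENCODE M21 transcript (open diamonds). Zbed3 rises from 73.4 to 439 FPKM and Khdc3 from 47.2 to 137 FPKM, Ooep falls from 225 to 127 FPKM, and Tle6 moves from 105 to 138 FPKM.

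Other oocyte genes were taken as a reference. The list of 21 oocyte genes, among them the zona pellucida genes, had 6 fold changes above 0 and 15 below, a median of -0.06 and 0 past the threshold in limma. At an unadjusted p under 0.05 in limma it had Oog1 alone, beside 6.34% of all genes tested. Oog1 measured 3.88, 3.90 and 2.92 FPKM in WT and 3.15, 2.24 and 2.13 FPKM in cKO. Of the 21 genes, 1 had all cKO values higher and 1 all lower, beside 6.37% and 5.89% of all genes. In cKO replicate 2 the reference list's mean was -0.06 relative to WT, beside -0.74 for the 4 NLRP members, which were singled out after their values were seen. The low value was not limited to NLRP genes. Of the 53 genes tested in this list and the lists of other maternal-effect genes and oocyte transcription factors, 4 were at least as low there as Nlrp14, relative to the median of the other libraries. These were the Argonaute gene Ago2 at 29.1%, the transcription factor gene Sohlh2 at 65.8%, the germ cell helicase gene Ddx4 at 66.1% and the receptor gene Kit at 66.3%. Over all genes tested, 6.12% were at least as far below as Nlrp14 in cKO replicate 2, measured on log2(FPKM + 1). With each library measured against this list, Nlrp5 differed between the groups by -0.39 with a pooled SD of 0.49, and Nlrp2 by -0.26 with a pooled SD of 0.23. Ooep differed by 0.21 with a pooled SD of 0.17. Without cKO replicate 2 the same differences were -0.021 for Nlrp5, -0.067 for Nlrp2 and 0.098 for Ooep. These differences are a description with no test.

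Of the other maternal-effect genes 22 of 23 were tested, with 9 fold changes above 0, 13 below and a median of -0.03. Among 13 oocyte transcription factor genes 7 were above 0 and 6 below, with a median of 0.02, and 0 of either list passed the threshold in limma (smallest adjusted p = 0.773). Dppa3, a maternal factor that guards DNA methylation in the zygote, stood at 209, 166 and 203 FPKM in WT and at 226, 274 and 210 FPKM in cKO. Its groups did not overlap, with cKO higher by 0.29 on the log2 scale (limma adjusted p = 0.790). Uhrf1, which brings the maintenance methyltransferase to DNA and is also used by dividing somatic cells, stood at 110, 114 and 109 FPKM in WT and at 103, 96.0 and 94.2 FPKM in cKO. Its groups did not overlap either, with cKO lower by a log2 difference of -0.18 (limma adjusted p = 0.773). Of the 22 maternal-effect genes tested, 2 had all cKO values higher and 2 all lower, beside 6.37% and 5.89% of all genes. The other lower gene was Ezh2, with a log2 difference of -0.24 (limma adjusted p = 0.777). The granulosa markers, a list of 12, summed to 954 to 1030 FPKM in WT and 768 to 877 FPKM in cKO, with cKO replicate 2 the lowest. Its part in any value above was not tested.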

How the data were processed

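RNA sequencing of whole ovaries at 9 dpp was analysed in 6 libraries, 3 per genotype, grouped by the sample labels. The authors deposited FPKM per gene in a single table. HISAT2 2.0.5 and the builds mm10 and GRCm39 are named per the submitters' processing notes, without roles. The table's chromosome accessions are those of GRCm39. The counter, annotation release and strandedness are unstated in the sources used here. In each library FPKM times gene length came in whole steps for 100% of values (tolerance 0.05 of a read), which gave back the reads.

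Values were analysed as log2(FPKM + 1), which understates the change of low genes, without further scaling. The 14714 of 47205 genes whose mean reached 1 FPKM were tested with limma 3.58.1 in R 4.3.3 (lmFit, eBayes with trend), two-sided, with Benjamini-Hochberg adjustment over all genes tested and a threshold of 0.05. A fold change is the cKO mean minus the WT mean with the moderated standard error (SE). The test was checked on simulated data with planted changes larger than the fold change of any member. That check does not show whether changes of the members' size would be found. Alternatives were another pseudocount, other filters and scalings, no trend, a replicate block, limma-voom on recovered reads, and each library left out.

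Genes named are Srsf1, the 10 members, the highest members of their families, their nearest coding neighbours, up to 4 genes of each context list with the smallest p, and the 3 genes most like the members' mean profile. Others were named after their values were seen. Ago2, Sohlh2, Ddx4 and Kit were picked for low values in cKO replicate 2. Nlrp4g, Nlrp9a, Nlrp9b and Nlrp10 were picked by their values within the family. The 2 alternatives on gene length, and the Nlrp family with each library left out, were added after seeing the data. The members and lists were chosen with earlier results of these data known. Depths bound counting error only.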

Additional observations from a re-analysis of the deposited data

How the results depend on the processing

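Under all 16 alternatives 0 of the 10 genes passed the threshold in either direction. Of 160 fold changes, 154 kept their sign and 6 reversed. Centred on the oocyte reference list, which moved the median of all genes to 0.07, Padi6 came to 0.031 and Tle6 to 0.038. With a library left out, Tle6 ranged from -0.14 to 0.085, Nlrp4f from -0.31 to 0.015 and Khdc3 from -0.21 to 0.0055. Over all alternatives Nlrp5 ranged from -0.65 to -0.09 and Nlrp2 from -0.47 to -0.13, each with a limma adjusted p of at least 0.656.

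Over all genes the 1 higher call became 0 with a pseudocount of 0.1, without a filter, with a filter at 5 FPKM, with quantile normalization, centred on the oocyte list, with the replicate block, with limma-voom and with the length trend removed. The 2 lower calls became 0 without a filter, with the replicate block and with limma-voom, and 1 with the length trend removed. With a library left out, higher calls ranged from 0 to 1 and lower calls from 0 to 1. The cause was not tested. Rescaling to a common total moved the share of genes above 0 from 49.97% to 36.5%, and centring on the oocyte list moved it to 65.6%.

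The replicate numbers do not show pairing: libraries with the same number had deviations correlated at 0.18, -0.08 and -0.06, other pairs at -0.23 to 0.23. With the replicate block the smallest adjusted p among the 10 was 0.829. Of the 9 other Nlrp genes tested, 8 were below 0 and 0 passed the threshold in limma with any library left out. On transcript length, 4 of 10 WT levels moved by more than their SD. With 3 libraries a group, an exact permutation test of a single gene cannot give a p below 0.1.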

Other observations

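The genes with the profile most like the mean of the 10 over the 6 libraries were sought among the 10771 tested genes whose range was at least that of the mean profile. Likeness was the root-mean-square distance between profiles of log2(FPKM + 1) centred on their own mean. The nearest was Slc22a23, a gene of the organic ion transporter family, at a distance of 0.03. It measured 2.98, 2.75 and 2.83 FPKM in WT and 2.87, 2.001 and 2.49 FPKM in cKO, lowest in cKO replicate 2. Wdr34, which encodes a dynein intermediate chain, followed at 0.04, with 15.1, 14.0 and 15.4 FPKM in WT and 14.4, 12.1 and 12.5 FPKM in cKO. The third was an unnamed transcript at 0.04. Of the 10 members themselves Nlrp14 was nearest to their mean at 0.09 and Nlrp5 farthest at 0.36, so the mean profile stands for few of them.

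Tle5, a short member of the Groucho family and a neighbour of Tle6 at 24532 bases, measured 243, 204 and 246 FPKM in WT and 214, 302 and 215 FPKM in cKO. It was highest in cKO replicate 2, as was the neighbour on the other side, Sirt6, at 144% of the median of the other libraries. Tle6 between them was at 103% in that library. Khdc1b, an oocyte KH-domain gene, ranged from 158 to 244 FPKM over the 6 libraries, lowest in cKO replicate 3. Khdc1a stood at 57.8, 38.1 and 39.1 FPKM in WT and 57.9, 39.0 and 42.8 FPKM in cKO, highest in replicate 1 of each group, as was Tle6. Whether replicate 1 libraries share a source was not tested beyond the correlations given above.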
